A study of Homo sapiens with 4 samples.

Results

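The genes of the NF-kB transcription factors and of their best-known inhibitors were followed in BLaER1, a human B cell leukaemia line, after knockdown of the long non-coding RNA HAL7. The set holds 10 genes of the 43450 in the table: the factor genes NFKB1, NFKB2, REL, RELA and RELB, and the inhibitor genes NFKBIA, NFKBIB, NFKBIE, TNFAIP3 and BCL3. They were found by Ensembl gene ID under a rule that names them by their place in the pathway, and they were chosen with earlier results of these data known. The question behind it was whether RNA levels in this pathway shift in cells whose TRAPPC9 RNA is lower, since the TRAPPC9 protein is reported to support NF-kB signalling.

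The groups are 2 control libraries and 2 HAL7 knockdown libraries of the same line, with replicates numbered 0 and 1. BLaER1 is a single line, known for an inducible C/EBPα transgene that both groups then carry. Knockdown cells received a set of LNA GapmeRs against HAL7 in their RPMI medium with serum, with no transfection. GapmeRs are antisense oligonucleotides that direct RNase H to the RNA they bind. Nothing in the sources used here gives the treatment of the control cells, the duration, or whether replicates were separate cultures. The p-values therefore reflect library-to-library spread alone, and that spread may be technical. Polyadenylated RNA was sequenced, and each gene has a deposited value per library, read here as FPKM, that is, fragments scaled to transcript length and library depth. Pairs of FPKM values below are replicates 0 and 1, in that order.

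NF-kB proteins bind DNA as dimers of 5 related subunits. IkB proteins, such as the product of NFKBIA, hold the dimers in the cytoplasm until the IKK kinase complex marks them for destruction. The freed dimers then switch on genes of inflammation, survival and lymphocyte growth, among them the genes of their own inhibitors, which closes a negative feedback loop. A slower branch of the pathway, run by the kinase NIK, processes the NFKB2 product and acts mainly through RELB. B lineage cells use both branches for survival and for responses to their antigen receptor.

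Because genes of this pathway are known as targets of NF-kB itself, their promoters were searched for the motif it binds. RefSeq promoter windows on GRCh38.p14, from 250 bases before to 50 bases after a transcription start, were at hand for 8 of the 10 genes in 13 windows, and not for RELB or NFKBIE. The classical NF-kB consensus was searched on both strands, and matches may overlap each other. A match stood in the windows of 7 of the 8 genes, which is 87.5%, against 13.3% of 27305 genes in all. By window the shares were 8 of 13, or 61.5%, and 11.3% of 35116. The windows of the 8 genes were richer in G and C, with a median of 68.7% against 58.7%, and the part of base composition in the difference was not tested. A match describes the letters only, and binding was not measured. Among genes of the target lists described later, 22 of 53 held a match.

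One or more matches are shown for each gene whose match lies before the start, read 5′ to 3′ on the strand of the gene, with the match in capitals. A match to the reverse complement starts with GG and ends with CCC.
NFKB1, chr4:102501300-102501329, plus strand: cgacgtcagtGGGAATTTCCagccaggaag
NFKB2, chr10:102394461-102394490, plus strand: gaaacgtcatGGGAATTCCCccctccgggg
NFKB2, chr10:102395674-102395703, plus strand: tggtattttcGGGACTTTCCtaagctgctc
REL, chr2:60881517-60881546, plus strand: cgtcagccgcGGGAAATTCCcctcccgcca
NFKBIA, chr14:35404811-35404840, minus strand: tgactggcttGGAAATTCCCcgagcctgac
NFKBIB, chr19:38899931-38899960, plus strand: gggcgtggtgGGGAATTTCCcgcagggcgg
TNFAIP3, chr6:137867182-137867211, plus strand: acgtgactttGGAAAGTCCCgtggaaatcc
TNFAIP3, chr6:137867194-137867223, plus strand: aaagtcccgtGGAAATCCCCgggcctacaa
The matches of NFKB1 and REL end 39 and 37 bases before the start, that of NFKBIA 71 bases before it, and those of TNFAIP3 57 and 45 bases before it. The only match of BCL3 lay after its start and is not printed. Neither window of RELA held a match, which says only that these letters are not in those windows.

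All 10 genes were measured above the level of 1 FPKM used as the minimum for testing, with REL the nearest to it at 1.83 to 2.31 FPKM. In the order of their means over the 4 libraries, TNFAIP3 came first at 103.5 FPKM, then NFKBIA at 61.9, RELA at 36.5, NFKB1 at 24.3, NFKB2 at 15.5, NFKBIB at 11.5, BCL3 at 10.9, NFKBIE at 7.98, RELB at 5.74 and REL at 2.09 FPKM. FPKM is scaled to transcript length, so these levels can be set beside each other. The ranges over libraries did not overlap in 8 of the 9 pairs of neighbours in this order. NFKBIB and BCL3, the exception, ran from 10.2 to 12.6 and from 9.68 to 12.3 FPKM and did not differ beyond their spread. The order thus spans 49.5-fold from REL to TNFAIP3, while the SD of a gene over the 4 libraries was between 1.57% (NFKB1) and 12.4% (BCL3) of its mean.

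**Figure D1:**
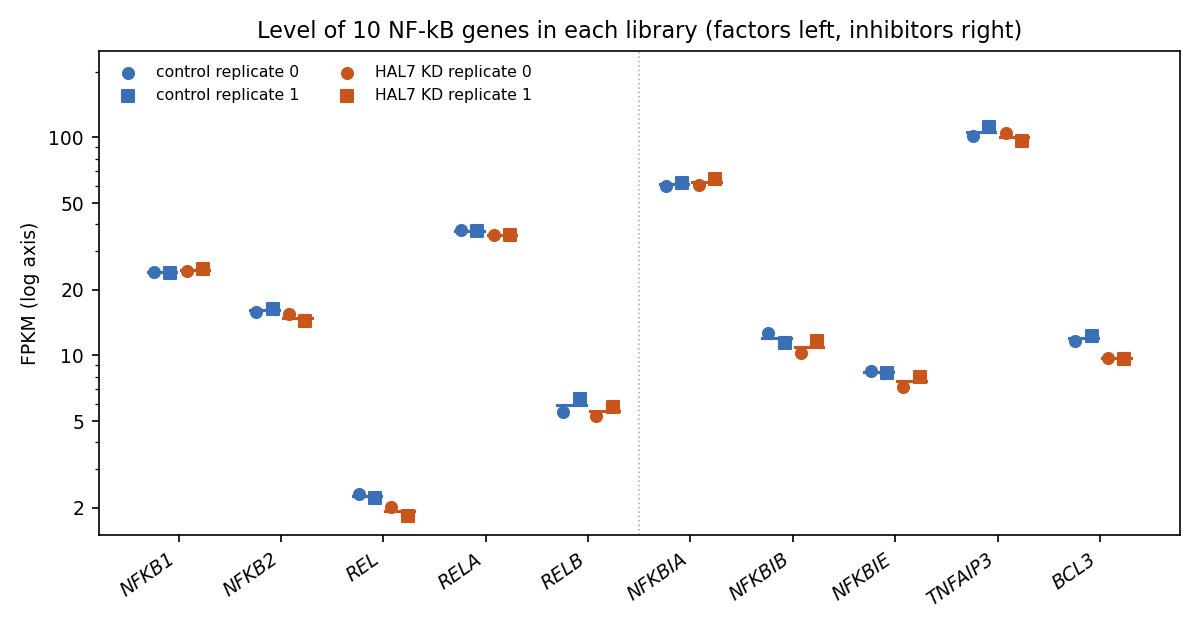
FPKM on a log axis for the 5 NF-kB factor genes (left) and the 5 inhibitor genes (right), with a point for each of the 2 control and 2 HAL7 knockdown libraries and a line at each group mean. Genes differ from each other far more than libraries do, and BCL3 is the inhibitor whose knockdown points lie clearest below its control points.

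HAL7 and TRAPPC9 set the frame. HAL7 had 0.726 and 0.613 FPKM in control libraries against 0.475 and 0.347 FPKM after knockdown, a log2 change of -0.24 ± 0.11 (SE) with a limma adjusted p = 0.32, so its fall did not pass the test. TRAPPC9, which encodes a subunit of the TRAPP vesicle tethering complex, fell from 11.9 and 11.6 FPKM to 4.77 and 5.40 FPKM, a ratio of 0.433, with a limma adjusted p = 0.019. Leaving out control replicate 0 ended its call, with a limma adjusted p of 0.064, as did leaving out control replicate 1, with 0.061. Log2 changes here are of FPKM + 1, knockdown minus control, which understates changes of genes near or below 1 FPKM.

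None of the 10 NF-kB genes passed the test. The count was 0 of 10 in limma with p-values adjusted over all 12935 genes tested, where 4 genes, or 0.0309%, passed. Their log2 changes ran from -0.28 for BCL3 to 0.04 for NFKBIA, with a median of -0.09 against -0.0090 over all genes tested. At an unadjusted limma p under 0.05, 1 of the 10 was lower (BCL3) and 0 were higher, beside 9.35% of all genes lower and 7.25% higher, so this count is near the background. Both knockdown libraries lay below both control libraries in 5 of the 10 genes, beside 27.7% of all genes, and above them in 1, beside 22.5%. Of the 10 changes, 8 were below 0, beside 53.2% of all genes. In RNA from a whole culture, fewer cells of a kind and less RNA per cell cannot be told apart.

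Of the main subunits of the fast branch, neither passed the test. RELA (ENSG00000173039.12, chromosome 11, 65653596 to 65663094 on GRCh38) encodes p65, the subunit that carries most of the activating function. Control libraries held 37.5 and 37.1 FPKM of it, knockdown libraries 35.8 and 35.6 FPKM. The knockdown libraries were lower without overlap, but by little: the log2 change was -0.06 ± 0.05 (SE) with a limma adjusted p = 0.56. NFKB1 (ENSG00000109320.6, chromosome 4, 102501329 to 102617302), which encodes the p105 precursor of the p50 subunit, had 24.2 and 23.9 FPKM in control and 24.4 and 24.8 FPKM in knockdown libraries. It was the gene with both knockdown libraries above both controls, by 0.03 ± 0.05 (SE) on the log2 scale, limma adjusted p = 0.80. The 95% intervals of the log2 change, -0.18 to 0.06 for RELA and -0.09 to 0.15 for NFKB1, were the narrowest of the set.

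REL (ENSG00000162924.8, chromosome 2, 60881521 to 60931610) encodes c-Rel, a subunit used mostly by lymphoid and myeloid cells, and had the lowest RNA level of the set. Its values were 2.31 and 2.21 FPKM in control and 2.02 and 1.83 FPKM in knockdown libraries, without overlap and lower after knockdown. The ratio of means was 0.852 and the log2 change -0.16 ± 0.08 (SE), with a limma adjusted p = 0.39. An interval of -0.36 to 0.04 leaves this change the least well measured of the fast branch.

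In the slower branch, NFKB2 (ENSG00000077150.12, chromosome 10, 102394110 to 102402529), which encodes the p100 precursor of p52, had 15.9 and 16.3 FPKM in control and 15.5 and 14.4 FPKM in knockdown libraries. These did not overlap, with knockdown replicate 1 the lowest, and the log2 change was -0.10 ± 0.06 (SE) with a limma adjusted p = 0.44. Without knockdown replicate 1 it was -0.05. RELB (ENSG00000104856.8, chromosome 19, 45001430 to 45038198), the partner of p52, had 5.53 and 6.34 FPKM in control and 5.30 and 5.81 FPKM in knockdown libraries. Here the groups overlapped, and the spread between replicates was wider than the difference between means, the log2 change being -0.08 ± 0.09 (SE), limma adjusted p = 0.67. Its direction turned without control replicate 1, to a log2 change of 0.0052, and with the trend on transcript GC content removed, to 0.03.

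The order of the shares in the factor pool was the same in each library, and differences in the shares were not tested. RELA gave 43.1% to 43.9% of the summed FPKM of the 5 factor genes in each of the 4 libraries, NFKB1 27.9% to 30.1%, NFKB2 17.4% to 19.0%, RELB 6.39% to 7.39% and REL 2.22% to 2.70%. Summed, the factor genes reached 85.4 and 85.9 FPKM in control and 82.9 and 82.4 FPKM in knockdown libraries, lower without overlap. NFKB1 had its highest shares, and REL its lowest, in both knockdown libraries.

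Among the IkB genes, NFKBIA (ENSG00000100906.6, chromosome 14, 35401511 to 35404749), the inhibitor that NF-kB itself renews within the feedback loop, had 59.8 and 62.1 FPKM in control and 60.6 and 64.8 FPKM in knockdown libraries. The groups overlapped. The log2 change was 0.04 ± 0.06 (SE), its 95% interval -0.10 to 0.18 and its limma adjusted p = 0.76. Without knockdown replicate 1, which held the highest value, the change was -0.0079. NFKBIA is widely used as a readout of NF-kB activity, and its interval corresponds to a ratio of 0.936 to 1.13 on the FPKM + 1 scale.

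NFKBIB and NFKBIE encode IkBβ and IkBε, which bind the dimers as NFKBIA does. NFKBIB (ENSG00000104825.11, chromosome 19, 38899700 to 38908893) had 12.6 and 11.4 FPKM in control and 10.2 and 11.6 FPKM in knockdown libraries, with overlapping groups, the log2 change being -0.13 ± 0.08 (SE), limma adjusted p = 0.49. It was -0.06 without control replicate 0, -0.19 without control replicate 1, -0.04 without knockdown replicate 0 and -0.21 without knockdown replicate 1. Its exons overlap those of SIRT2 on the opposite strand, and counting by strand is not stated. SIRT2, a deacetylase gene named for this overlap after its values were seen, stood at 50.2 and 52.8 FPKM in control and 44.1 and 41.8 FPKM in knockdown libraries, several times the level of NFKBIB, and its part in the NFKBIB values was not tested. NFKBIE (ENSG00000146232.8, chromosome 6, 44258166 to 44265788) had 8.45 and 8.29 FPKM in control and 7.20 and 7.99 FPKM in knockdown libraries, lower without overlap, by -0.13 ± 0.07 (SE) on the log2 scale, limma adjusted p = 0.42. Leaving out knockdown replicate 0 gave -0.06, and leaving out knockdown replicate 1 gave -0.19. The summed FPKM of the 3 IkB genes, divided by that of the 5 factor genes, was 0.948 and 0.953 in control and 0.941 and 1.02 in knockdown libraries, so the balance overlapped between groups.

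TNFAIP3 (ENSG00000118503.9, chromosome 6, 137867188 to 137883312) encodes A20, a ubiquitin-editing enzyme that shuts the pathway off upstream of IKK, and it is itself an NF-kB target. The most abundant RNA of the set, it had 101 and 111 FPKM in control and 105.1 and 96.5 FPKM in knockdown libraries. Knockdown replicate 0 fell between the controls, so the groups overlapped. The log2 change was -0.08 ± 0.07 (SE), with an interval of -0.24 to 0.09 and a limma adjusted p = 0.62. Single libraries moved it: it was -0.14 without control replicate 0 and also without knockdown replicate 0, -0.0064 without control replicate 1 and -0.01 without knockdown replicate 1. An antisense gene whose exons overlap its own was steady at 8.10 to 8.13 FPKM in the 4 libraries.

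BCL3 (ENSG00000069399.7, chromosome 19, 44747705 to 44760044) encodes a nuclear IkB protein that works with p50 and p52 dimers and can activate as well as repress. It had 11.7 and 12.3 FPKM in control and 9.78 and 9.68 FPKM in knockdown libraries. The gap between the groups was wider than the spread within either. The ratio of means was 0.810 and the log2 change -0.28 ± 0.06 (SE), with an unadjusted limma p of 0.0029 and an adjusted p = 0.19, so BCL3 did not pass. It ranked 192nd by p among the genes tested. Its 95% interval, -0.42 to -0.13, was the only one of the 10 without 0.

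The size of change these libraries could have called is set by the spread. With the p-value that the next call would have needed, 1.9e-05, a log2 change of 0.55 for RELA, the best measured, up to 0.95 for RELB would have been required. The 95% intervals of the 10 genes reached from -0.42 to 0.18, apart from that of TRAPPC9, -1.24 to -0.89. A change of the size of the TRAPPC9 change lay outside the interval of each of the 10 genes, and changes smaller than those limits could not have been called. RNA levels do not show the location or processing of the proteins, by which this pathway is mainly switched.

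**Figure D2:**
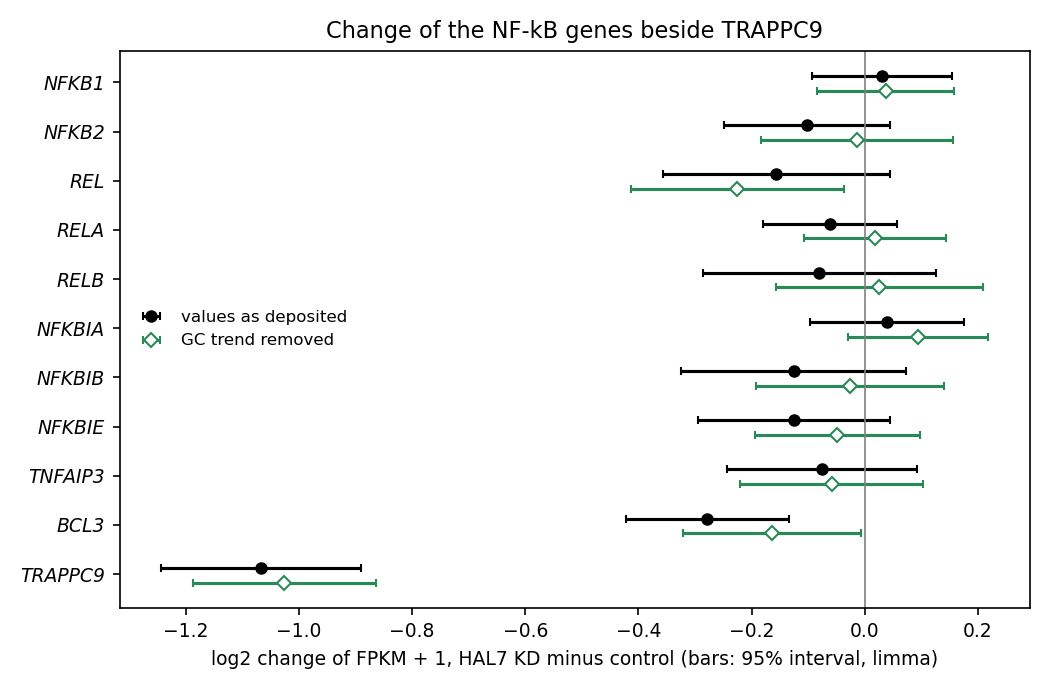
Log2 change of FPKM + 1 (knockdown minus control, x axis) for the 10 NF-kB genes and TRAPPC9, with 95% limma intervals, from values as deposited (filled circles) and with the trend on transcript GC content removed (open diamonds). TRAPPC9 lies near -1.07 and the NF-kB genes between -0.28 and 0.04.

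Transcript GC content moved with these changes. Across 12499 genes, which are not independent replicates, the log2 change had a Spearman rho of -0.43 with GC content. Of the 10 NF-kB genes, 8 had a GC content above the median of 50.1%, and BCL3, at 65.4%, had the highest. With the trend removed, the median of the 10 was -0.02 against 0.0040 over all genes, 6 of 10 changes were below 0, and RELA, at 0.02, and RELB, at 0.03, changed sign. NFKB2, NFKBIB and NFKBIE moved nearer to 0, at -0.01, -0.03 and -0.05, and NFKBIA moved further from it, at 0.09. BCL3 then had -0.16 ± 0.07 (SE), so that the change as deposited was 1.7 times as large, with a limma adjusted p = 0.35. REL, with a GC content of 40.4% the lowest of the set, then stood at -0.23 ± 0.08 (SE), further from 0, limma adjusted p = 0.31. These 2 were the genes at an unadjusted p under 0.05, 2 of 10 beside 13.4% of all genes.

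**Figure D3:**
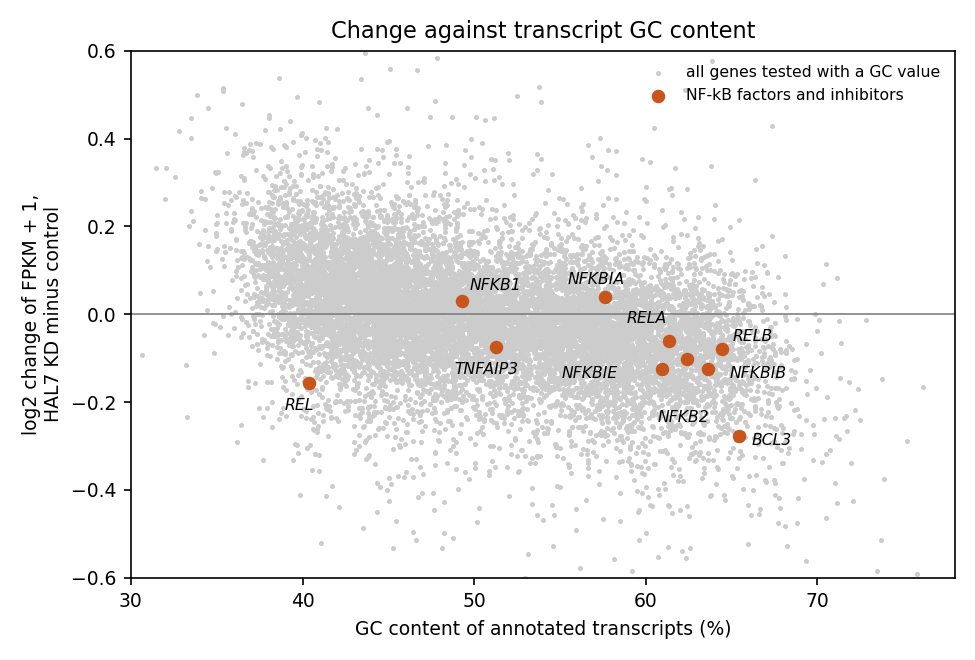
Log2 change of FPKM + 1 (y axis) against the mean GC content of a gene's annotated transcripts in percent (x axis) for 12499 genes (grey) and the 10 NF-kB genes (orange). Changes are lower where GC content is higher, and 8 of the 10 genes lie on the GC-rich side; 57 genes beyond the axes are not drawn.

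The genes that carry the signal to NF-kB were taken by role. The lists were drawn up from textbook knowledge of the pathway, and in none of those without TRAPPC9 did a gene pass limma over all genes. Outside the 10 genes and the TRAPP subunits, the pathway lists held 80 tested genes. Among these, NFKBIZ, TRAF1, CYLD, TNIP1 and ZC3H12A also stand in the target lists described later. Of the 80, 5 were lower and 3 higher at an unadjusted p under 0.05, beside 9.35% and 7.25% of all genes. Their median log2 change was -0.04 against -0.0090 over all genes. The other IkB-type genes NFKBIL1, NFKBID and NFKBIZ stood at knockdown-to-control ratios of 0.920, 0.856 and 1.11.

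Of 12 tested genes of the IKK complex and its activating kinases, 1 was lower and 0 higher at an unadjusted p under 0.05, near the shares of 9.35% and 7.25% over all genes, with a median log2 change of -0.04. That gene was IKBKB, the IKK kinase of the fast branch, with a mean of 59.1 ± 2.96 FPKM (SD) in control and 53.3 ± 1.54 FPKM (SD) in knockdown libraries, which did not overlap, and a limma adjusted p = 0.28. CHUK, which encodes the other IKK kinase, stood at a ratio of 1.11 with both knockdown libraries above both controls, so the kinase genes lay on opposite sides without passing. TAB2, an adaptor of the kinase TAK1, stood at 0.921, TBK1, an IKK-related kinase, at 1.09 and MAP3K1 at 1.03. Log2 changes with the GC trend removed were -0.12 for IKBKB, 0.04 for CHUK, -0.17 for TAB2, 0.02 for TBK1 and -0.06 for MAP3K1.

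Among 27 tested genes of TRAFs, adaptors and ubiquitin enzymes, 1 was lower and 1 higher at that level, beside 9.35% and 7.25% of all genes, with a median of -0.01. UBE2N, which builds the ubiquitin chains that recruit TAK1, had 54.0 and 48.4 FPKM in control and 58.7 and 62.8 FPKM in knockdown libraries, a ratio of 1.19. RBCK1, a subunit of the linear ubiquitin ligase, had 44.6 and 45.2 FPKM and 39.7 and 39.8 FPKM, a ratio of 0.885. RNF31, the catalytic subunit of the same ligase, was at 1.09, on the other side. BIRC2, IRAK1 and UBE2V1 stood at 1.10, 0.930 and 1.02. UBE2N and RBCK1 each had a limma adjusted p of 0.21. With the GC trend removed, the log2 change of RBCK1 was -0.08, against -0.17 as deposited. Those of UBE2N, RNF31, BIRC2, IRAK1 and UBE2V1 were then 0.19, 0.19, 0.07, -0.0070 and 0.0086.

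Of 19 tested genes that restrain the pathway, 2 were lower and 1 higher, near the 9.35% and 7.25% of all genes, with a median of -0.04. SOCS1, a brake on cytokine and Toll-like receptor signals, stood at a ratio of 0.776 and SIGIRR, an inhibitory receptor, at 0.914, while NKRF, an NF-kB repressing factor, stood at 1.15. COMMD1 and TAX1BP1 were at 0.895 and 1.02. SOCS1, SIGIRR and NKRF had limma adjusted p-values of 0.25 to 0.29. Their log2 changes with the GC trend removed were -0.12, -0.02 and 0.10.

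The receptor list also holds the signalling enzyme genes BTK, PLCG2 and PRKCB. It gave 0 of 13 tested genes at an unadjusted p under 0.05, beside 9.35% lower and 7.25% higher of all genes. Their median was -0.09, and -0.03 with the GC trend removed. Both knockdown libraries lay below both controls in 7 of the 13, beside 27.7% of all genes, above them in 0, beside 22.5%, and overlapped them in 6. The B cell receptor chains CD79A and CD79B stood at ratios of 0.927 and 0.920, the kinase genes BTK and PRKCB at 0.909 and 0.862, and CD40, which feeds both branches, at 0.892. These 5, named for their small p or high level, are among the 7. With the GC trend removed, their log2 changes were -0.03 for CD79A, -0.05 for CD79B, -0.16 for BTK, -0.17 for PRKCB and -0.12 for CD40. Ligand genes had a median of 0.10, and 0.15 with the GC trend removed. Of the 6 tested, 1 was lower and 1 higher at an unadjusted limma p under 0.05, beside 9.35% and 7.25% of all genes. Both knockdown libraries lay above both controls in 3 of the 6, beside 22.5% of all genes. They lay below them in 1, beside 27.7%, and overlapped them in 2, beside 6431 of 12935 genes. Over all genes 53.2% of changes were below 0, while 5 of the 6 ligand genes lay on the higher side. CD70, a ligand of CD27, was the exception, at 59.3 and 62.8 FPKM in control and 48.5 and 49.8 FPKM in knockdown libraries. Its log2 change of -0.31 ± 0.05 (SE) had an unadjusted limma p of 0.0010 and an adjusted p = 0.19. LTB, the lymphotoxin that signals to the slower branch, had 3.74 and 2.93 FPKM in control and 3.84 and 5.14 FPKM in knockdown libraries, a ratio of 1.35. The limma adjusted p of LTB was 0.30. TNF, TNFSF13 and LTA stood at 1.22, 1.11 and 1.06. With the GC trend removed, the log2 changes of CD70, LTB, TNF, TNFSF13 and LTA were -0.24, 0.44, 0.24, 0.18 and 0.12.

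Of the genes known as NF-kB targets, 31 were tested and 0 passed limma over all genes, which with 0.0309% of all genes passing says little about them. At an unadjusted p under 0.05, 6 were lower and 2 higher, beside 9.35% and 7.25% of all genes. Of the 31, 22 changes were below 0, beside 53.2% of all genes. Both knockdown libraries lay below both controls in 19, beside 27.7%, and above them in 2, beside 22.5%. The median log2 change was -0.09 against -0.0090 over all genes, and -0.05 with the GC trend removed. With that trend removed, 19 of the 31 changes were below 0, beside 6035 of 12499 genes. Of 32 matched target genes of inflammation and adhesion, 6 reached the minimum level, which limits what this line can show: 26 lay below it. CCR7, ICAM1, PLAU and CD44 stood at ratios of 0.881, 0.920, 0.899 and 0.956, each with both knockdown libraries below both controls. The other 2 tested genes, CD83 and IL15RA, named here after their values were seen, had overlapping groups and lay on the other side, at ratios of 1.03 and 1.06. ICAM1, an adhesion molecule gene, had a mean of 7.97 ± 0.0488 FPKM (SD) in control and 7.33 ± 0.0120 FPKM (SD) in knockdown libraries, tight within each group, with a limma adjusted p = 0.42.

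The targets of survival, stress and regulation had 25 tested genes, with a median log2 change of -0.09. At an unadjusted p under 0.05, 6 were lower and 2 higher, beside 9.35% and 7.25% of all genes. In 15 of the 25 both knockdown libraries lay below both controls, beside 27.7% of all genes, and in 2 above them, beside 22.5%. The lower genes were KLF6, GADD45B, PLK2 and FTH1, at ratios of 0.833, 0.834, 0.746 and 0.891, and JUNB and IRF1, named after their values were seen, at 0.872 and 0.889. Removing the GC trend took FTH1 and JUNB to unadjusted limma p-values of 0.058 and 0.15. KLF6, GADD45B, PLK2 and IRF1 stayed under 0.05, IRF1 only just, at 0.0498. In that fit 13.4% of all genes were under 0.05 in either direction. GADD45B, which restrains stress kinase signalling, had 10.8 and 10.2 FPKM in control and 8.71 and 8.88 FPKM in knockdown libraries. FTH1, the ferritin heavy chain gene, had 528 and 502 FPKM and 456 and 462 FPKM.

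The higher genes were IRF4, a B lineage transcription factor gene, with 46.1 and 43.2 FPKM in control and 51.0 and 55.6 FPKM in knockdown libraries, and SLAMF1, a lymphocyte receptor gene named after its values were seen, with 34.3 and 32.9 FPKM and 37.2 and 49.5 FPKM. IRF4 and SLAMF1 also stayed under 0.05 with the GC trend removed. Their log2 changes were then 0.29 and 0.34, with unadjusted limma p-values of 0.0020 and 0.026. TNFAIP2 stood at 0.956 with overlapping groups. Limma adjusted p-values of these genes ran from 0.20 upward. Of these 25 genes, 18 changes were below 0 and 7 above. With the GC trend removed, the median of these 25 genes was -0.04.

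**Figure D4:**
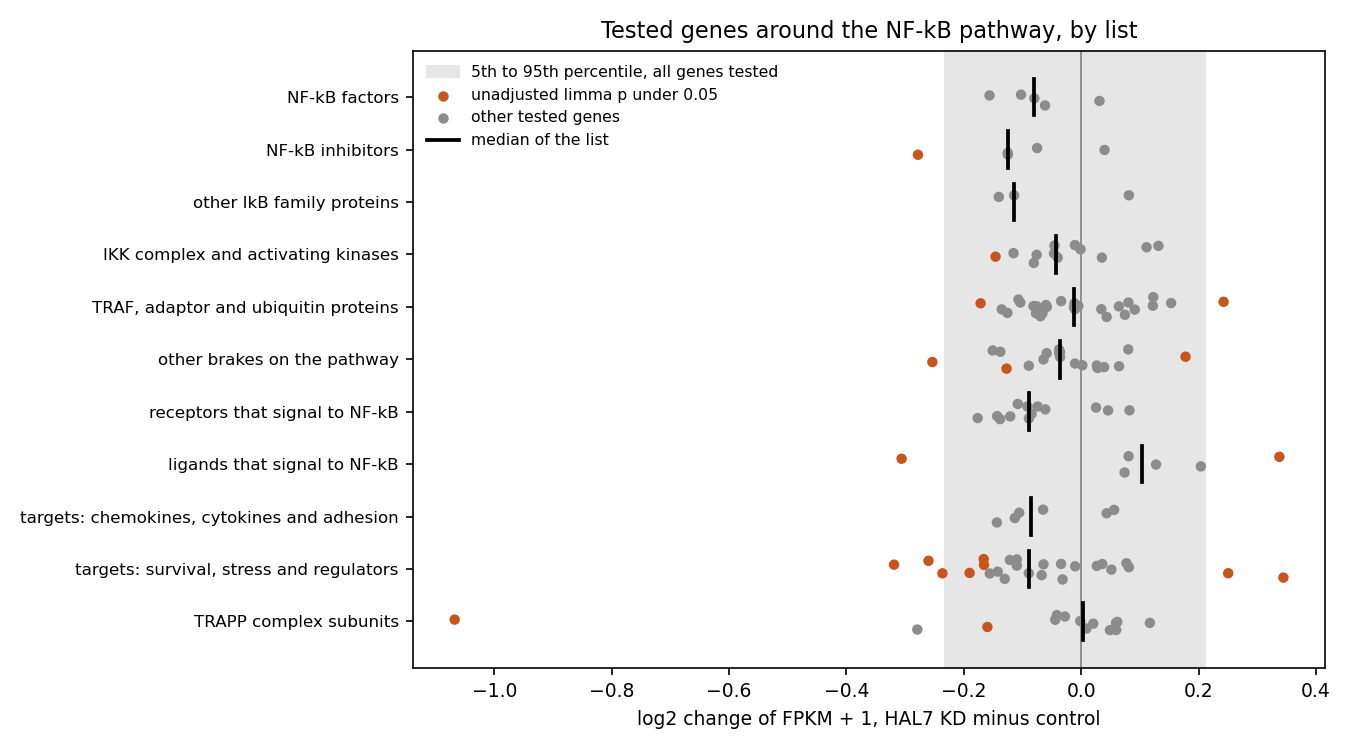
Log2 change of FPKM + 1 (x axis, knockdown minus control) of every tested gene in 11 lists around the NF-kB pathway, with orange points at an unadjusted limma p under 0.05, a black bar at each list's median and a grey band from the 5th to the 95th percentile of all genes tested (-0.23 to 0.21). TRAPPC9, at -1.07 in the bottom row, stands apart from every NF-kB gene.

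Among the genes of its complex, TRAPPC9 alone passed. That is 1 of 14 TRAPP subunit genes tested, beside 0.0309% of all genes. The median log2 change was 0.0035, with 7 changes below 0 and 7 above. At an unadjusted limma p under 0.05, 2 were lower (TRAPPC9 and TRAPPC10) and 0 higher, beside 9.35% and 7.25% of all genes. Smaller falls of the other subunit genes could not have been called. TRAPPC10, which joins TRAPPC9 in the TRAPPII form of the complex, had 15.1 and 15.4 FPKM in control and 13.8 and 13.2 FPKM in knockdown libraries, a ratio of 0.888 with a limma adjusted p = 0.25. TRAPPC5, TRAPPC8, TRAPPC1 and TRAPPC3 stood at 0.828, 1.09, 1.04 and 1.01.

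B cell genes dominated the marker lists. All 13 matched B cell marker genes were at 1 FPKM or more in each library, led by DNTT, IGLL1 and VPREB3, with summed levels of 4716 and 4655 FPKM in control and 4520 and 4540 FPKM in knockdown libraries, lower without overlap. Of the 13, 11 changes were below 0, beside 53.2% of all genes. At an unadjusted limma p under 0.05, 2 were lower and 0 higher, beside 9.35% and 7.25% of all genes. The median log2 change was -0.05. With the GC trend removed it was -0.03, and 9 of the 13 changes were below 0, beside 6035 of 12499 genes. The part of these markers in the NF-kB results was not tested. Of 13 monocyte and macrophage markers, 3 reached 1 FPKM (CSF1R, CSF3R and CD68), and FCGR3A, S100A8 and S100A9 were listed at 0 in all libraries. The sum was 43.1 to 44.1 FPKM in control and 41.0 to 43.7 FPKM in knockdown libraries, of which CSF1R gave 33.8 to 38.0 FPKM. CSF1R overlapped between groups, at a ratio of 1.01. CSF3R and CD68 were lower without overlap, at 0.856 and 0.744. At an unadjusted limma p under 0.05, 1 of the 3 was lower (CD68) and 0 higher, beside 9.35% and 7.25% of all genes. Of 10 T and NK cell markers, NKG7 and NCAM1 reached 1 FPKM, the next, CD8A, was at 0.0510 to 0.0802 FPKM, and CD3D, CD3G and CD2 were listed at 0. Their sum was 31.1 and 30.3 FPKM in control and 25.2 and 20.1 FPKM in knockdown libraries, of which NKG7 gave 27.5, 27.0, 21.9 and 17.2 FPKM, and its part in the NF-kB results was not tested. Depth relative to the shallowest library, control replicate 0, was estimated from the smallest increments between low FPKM values at 2.12 for the other control library, and at 1.78 and 1.59 for the knockdown libraries.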

How the data were processed

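The build was hg19 and the tools were Cuffdiff 2.2.1, TopHat2 2.0.14 and Bowtie2 2.2.5, per the submitters' processing notes; for their options, annotation and scaling, the sources used here give nothing. The deposited values carry no unit and were read as FPKM, because the authors' table has Cuffdiff's name for its ID column and non-whole values summing to 812554 to 853609 per library. Names, GC content and positions came from GENCODE 29 (GRCh38) and symbol tables by Ensembl ID, and promoters from RefSeq (GRCh38.p14). GRCh38 positions only locate genes.

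The 2 groups were compared on log2(FPKM + 1) by limma 3.58.1 under R 4.3.3 (variance trend, two-sided p-values, Benjamini-Hochberg adjustment at 0.05). A gene was tested if its mean reached 1 FPKM, with HAL7 added, 12935 in all. For 2 libraries a group, 0.333 is the smallest two-sided p of an exact permutation test, so the spread was pooled across genes. The fit was tested on simulated data. Depth was read from steps of FPKM times length in genes with a single transcript of at least 2500 nt, where 78.0% to 90.0% of low values lay within 0.15 of a whole multiple. For each library, a gene's deviation from its mean over the libraries was fitted by loess on transcript GC content. The fit was then subtracted to remove the GC trend.

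The genes and lists were chosen with earlier results of these data known. The naming rule covers all 10 genes, HAL7 and TRAPPC9; in each other list genes past the threshold, the 4 of smallest p and the 2 of highest level; and the 3 most abundant markers. Of listed genes, IKBKG, IKBKE, OTUD7B, CCL3, CCL4, CCL5, MARCKS, CD24, MRC1 and TRAC matched no ID and are not analysed here.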

Additional observations from a re-analysis of the deposited data

How the results depend on the processing

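None of the 10 NF-kB genes was called under any of 15 other settings, and the lowest limma adjusted p was 0.15, for BCL3 with a mean of at least 5 FPKM. Their direction was the same in all but 6 of 140 refits: RELA was 0.018 with the GC trend removed, alone and with the replicate block, RELB was 0.026 in both and ranged from -0.17 to 0.0052 when a library was left out, and NFKBIA ranged from -0.0079 to 0.087. The number of genes called among all tested, 4, became 2 with a pseudocount of 0.1, 1 with no filter, 1 with a mean of at least 5 FPKM, 19 with the replicate block, 0 with the block and the GC trend removed, and 11 to 22 with a library left out (11 lacking either control library, 22 and 12 lacking knockdown replicates 0 and 1 respectively); the causes were not tested. In the fit with 0, 1431 genes had an unadjusted limma p under 0.05. Which genes were called was not compared between settings. The replicate numbers could not be shown to pair libraries: over 2 pairs the deviations of same-numbered libraries correlated at 0.12 across genes.

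TRAPPC9 stayed lower throughout but lost its call with no filter, at -1.07 and a limma adjusted p of 0.20, with the block and the GC trend removed, at -1.03 and 0.082, and without either control library; over left-out libraries its log2 change ran from -1.14 to -0.99. The count of TRAPP genes called was then 0 in those fits, and 0 to 1 over left-out libraries. Of 50 other named genes, 8 changed sign somewhere. With a library left out, NFKBIZ ran from -0.013 to 0.18, MAP3K1 from -0.072 to 0.14, UBE2V1 from -0.016 to 0.084, TAX1BP1 from -0.013 to 0.068, LTA from -0.0022 to 0.15, TNFAIP2 from -0.20 to 0.064, IL15RA from -0.029 to 0.14 and TRAPPC3 from -0.059 to 0.077. With the GC trend removed, with or without the block, MAP3K1 was -0.063, TAX1BP1 -0.035 and TNFAIP2 0.0045. The 2 libraries per group limit the precision; all 10 NF-kB genes exceeded 1 FPKM in each library.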
